A study of Mus musculus with 28 samples.

Results

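Ventricular gene expression was compared between 7 mice with chronic kidney disease (CKD) and 5 sham-operated mice, all of which had been given the gut bacterium Oxalobacter formigenes (Oxf). These are the 12 libraries whose titles name Oxf together with CKD or sham, out of 28 libraries in the series, and all genes of the raw count table were used. The series title concerns the effect of colonization on kidney disease and cardiac remodelling. All mice were adult males of the C57BL/6 strain and ate a diet with 1% hydroxyproline, which the body can convert to oxalate, and 0.5% calcium. CKD-Oxf mice underwent a staged 5/6 nephrectomy at 6 weeks of age and sham-Oxf mice a sham operation. On day 7 both groups received 1 oral dose of Oxf. The remaining 16 libraries came from mice given the culture medium in place of the bacterium, 6 with CKD (CKD-vehicle) and 10 sham-operated (sham-vehicle), and they entered the fit to share 1 estimate of the spread. Mice were perfused with saline at sacrifice, and each library is the ventricular myocardium of 1 mouse. The design names 10 mice per group, and mice without a library were not analysed here.

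In CKD the kidneys lose filtering tissue, and the retained toxins, salt, phosphate and raised blood pressure are known to load the heart, which answers with natriuretic peptides, hypertrophy and fibrosis. Oxf lives on oxalate in the gut and so lowers the amount that reaches the blood and the kidney. Uraemia is also known to disturb platelets and red cell production, and both blood elements carry RNA that enters the RNA of any tissue with residual blood.

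The libraries differed in ways that the surgery does not define. Mouse numbers ran from 921 to 929 in sham-Oxf and from 931 to 940 in CKD-Oxf. A difference that follows this order cannot be told apart from the surgery. CKD-Oxf libraries held 42.1 ± 8.79 M counts (SD, n = 7) and sham-Oxf libraries 31.2 ± 6.94 M (n = 5), a difference of 10.9 M (exact two-sided permutation test, p = 0.0316, adjusted over 3 library measures 0.0947). Mouse 921 of sham-Oxf had counts in 15879 genes, against 27128 to 33995 in the other 11 libraries. It had no count for 7519 of 22823 genes that were counted in every other library of the series, against at most 66 such genes in any of the other 11. Results are therefore given with and without mouse 921, and where a bracket joins 2 log2 fold changes by 'or', the latter is without it. The 7SL RNA, a small cytoplasmic RNA counted at the near-identical copies Rn7s1 and Rn7s2, took 10.3% of the counts in mouse 921, 1.83% to 3.66% in the other 4 sham-Oxf mice, and from 1.95% to 20.6% in CKD-Oxf with a median of 7.73%. The highest share was that of mouse 934. Rn7s1 and Rn7s2 had almost equal counts in each of the 12 libraries. Whether the same reads were counted at both, which would raise the share, was not tested. The log2 7SL share was 1.03 higher in CKD-Oxf (p = 0.159) and 1.44 higher without mouse 921 (p = 0.0515, adjusted 0.15, by the same test). Because this share varied so widely, the fit was also run with it as a covariate. The cardiomyocyte markers (Myh6, Myl2, Tnnt2, Tnni3, Actc1, Ryr2 and Myl3) were all detected and summed to 18924 to 27415 CPM (counts scaled to a library of 1e+06) in sham-Oxf against 22996 to 39604 CPM in CKD-Oxf. Fat markers ranged widely in both groups, from 0.0474 to 191 CPM in sham-Oxf and from 4 to 416 CPM in CKD-Oxf.

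**Figure D1:**
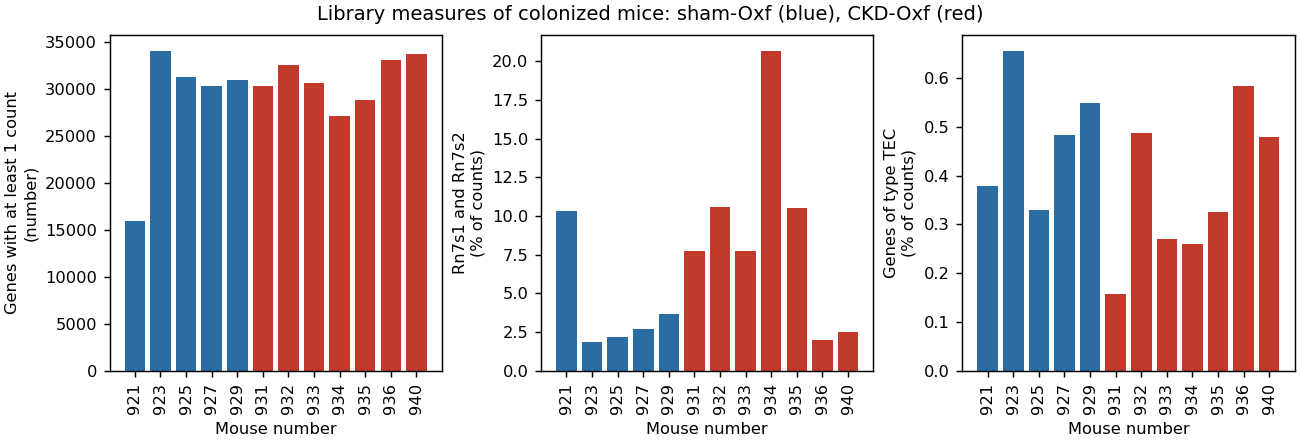
Bars give 1 library each for genes with at least 1 count (number), the share of counts at Rn7s1 and Rn7s2 (%), and the share at genes of type TEC, transcripts that the annotation lists as provisional (%), with sham-Oxf in blue and CKD-Oxf in red. Mouse 921 stands apart with 15879 genes, and mouse 934 has the highest 7SL share at 20.6%.

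No single gene passed an adjusted p of 0.05 between CKD-Oxf and sham-Oxf. edgeR's quasi-likelihood test with Benjamini-Hochberg adjustment called 0 of 24273 genes (0% called) with all 28 libraries, and the smallest adjusted p was 0.195. Without mouse 921 it called 0 of 24810 genes, with a smallest adjusted p of 0.489. Before adjustment, 1997 genes (8.23%) had a p under 0.05, 729 higher (3%) and 1268 lower (5.22%) in CKD-Oxf. Without mouse 921 it was 1718 genes (6.92%), 625 higher (2.52%) and 1093 lower (4.41%). In both fits 363 genes (1.5%) were higher and 406 (1.67%) lower. The share of lower genes was larger with upper quartile scaling, with 516 genes higher and 1514 lower. Fitted on the 12 Oxf libraries alone, 252 genes (1.13%) were higher and 520 (2.33%) lower, or 3.46% in all, below the 5% that this threshold passes when nothing differs. Without mouse 921 those libraries gave 430 (1.87%) and 560 (2.43%), or 4.3% in all. With the 7SL share as covariate 1435 genes (5.91%) were higher and 1860 (7.66%) lower, and 816 (3.29%) and 1106 (4.46%) without mouse 921. The DESeq2 Wald test gave 100 genes past an adjusted 0.05, 27 higher and 73 lower, and 14 without mouse 921, while limma voom with sample weights gave 0 in both cases. The median standard error of a log2 fold change was 0.32, or 0.27 without mouse 921. All differences below are therefore values with unadjusted p-values unless an adjusted p is named. Log2 fold changes are CKD-Oxf over sham-Oxf.

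A group of 5 inducible heat shock genes was lower in CKD-Oxf, in part without overlap between the groups. These genes encode chaperones that refold damaged proteins, and heat shock factor switches them on from paired copies of a short element in their promoters. The group of 5 described here was put together after the values were seen, from Hsph1 and Dnaja1 among the leading genes and 3 classical members, so its counts describe it and test nothing. Promoter windows, the 250 bases before a RefSeq start site in build GRCm38.p6, are shown for the 4 genes with a match to the inverted heat shock core. The windows lie at chr5:149636337-149636586 (minus strand) for Hsph1, chr4:40722218-40722467 (plus strand) for Dnaja1, chr17:34972157-34972406 (minus strand) for Hspa1a and chr17:34959239-34959488 (minus strand) for Hspa1b. Capitals mark a match to TTCNNGAA or GAANNTTC, each of which reads the same on both strands.
Hsph1: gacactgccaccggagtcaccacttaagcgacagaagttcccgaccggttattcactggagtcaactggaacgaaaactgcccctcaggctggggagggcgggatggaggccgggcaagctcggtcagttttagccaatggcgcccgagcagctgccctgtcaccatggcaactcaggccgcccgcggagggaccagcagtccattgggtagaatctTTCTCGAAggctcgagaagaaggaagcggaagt
Dnaja1: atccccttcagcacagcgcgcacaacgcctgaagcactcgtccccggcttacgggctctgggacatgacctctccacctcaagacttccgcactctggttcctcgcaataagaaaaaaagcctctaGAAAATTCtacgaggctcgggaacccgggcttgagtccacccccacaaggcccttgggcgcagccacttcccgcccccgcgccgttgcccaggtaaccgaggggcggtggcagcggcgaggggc
Hspa1a: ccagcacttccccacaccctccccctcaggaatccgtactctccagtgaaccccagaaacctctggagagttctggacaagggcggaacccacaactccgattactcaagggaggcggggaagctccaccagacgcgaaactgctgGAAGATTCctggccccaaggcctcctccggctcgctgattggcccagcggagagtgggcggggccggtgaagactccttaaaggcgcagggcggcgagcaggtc
Hspa1b: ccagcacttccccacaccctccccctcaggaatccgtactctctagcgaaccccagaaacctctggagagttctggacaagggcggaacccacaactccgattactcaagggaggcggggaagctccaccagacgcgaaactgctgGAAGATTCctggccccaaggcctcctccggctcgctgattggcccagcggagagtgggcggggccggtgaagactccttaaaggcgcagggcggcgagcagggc
The Hsph1 window carries 1 TTCNNGAA, and Dnaja1, Hspa1a and Hspa1b carry 1 GAANNTTC each. Dnaja1 has a match in only 1 of its 3 windows, and no match was found in the windows of Dnajb1. Across 32851 promoter windows of this length 7.17% hold TTCNNGAA, 6.69% hold GAANNTTC and 12.8% hold either.

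Hsph1, an HSP110 chaperone that recharges HSP70 (ENSMUSG00000029657, chr5:149614287-149636376, GRCm38), was at 25.4, 29.6, 26.4, 30.4 and 53.9 CPM in sham-Oxf mice 921, 923, 925, 927 and 929. In CKD-Oxf it lay between 9.49 and 18.6 CPM with a median of 13.8. Every CKD-Oxf library was below every sham-Oxf library, which 0.128% of all tested genes also showed. The log2 fold change was -1.26 ± 0.35 (SE, p = 0.00107, edgeR adjusted p = 0.227), and -1.34 ± 0.37 without mouse 921. Dnaja1, an HSP40 partner of HSP70, was at 40.9, 53.0, 49.5, 57.8 and 61.4 CPM in sham-Oxf and between 23.0 and 35.7 in CKD-Oxf, again with no overlap. Its log2 fold change was -0.92 ± 0.28, and -1 without mouse 921. Dnaja1 overlaps Smu1 on the opposite strand, so its counts are uncertain if reads were counted without strand. Dnajb1, another HSP40 protein, was at 7.58 to 18.8 CPM in sham-Oxf against 5.91 to 9.28 in CKD-Oxf (log2 fold change -0.78, or -0.92 without mouse 921). Only mouse 921 overlapped the CKD-Oxf range.

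Hspa1b, 1 of the 2 inducible HSP70 genes, was at 5.64 CPM in mouse 921 and at 9.15 to 20.5 in the other 4 sham-Oxf mice, against 4.16 to 8.80 in CKD-Oxf (log2 fold change -1.18, or -1.38 without mouse 921). Its neighbour Hspa1a showed 8.21 to 18.7 CPM in those 4 mice and 3.92 to 8.41 in CKD-Oxf, and 0.0474 CPM, a single count, in mouse 921. The copies are near-identical and reads between them cannot be separated with certainty. Hspa1a and Hspa1b are therefore not 2 separate signals in the counts and sums of this group. Summed over the 5 genes, sham-Oxf mice held 79.6, 130, 118, 124 and 172 CPM in the order given above, and CKD-Oxf mice between 46.8 and 74.2. The sums of the 2 groups did not overlap. At an unadjusted p under 0.05, 3 of the 5 were lower, against 5.22% of all genes tested, and all 5 without mouse 921, against 4.41%. The wider heat shock and cold-inducible list gave a median log2 fold change of -0.16 over 11 genes, against 0.05 over all genes tested, or -0.084 against -0.0034 without mouse 921. With all libraries 4 of the 11 were positive and 7 negative. Among its chaperones outside the group of 5, Hspa8 was at -0.14, Hsp90aa1 at -0.17 and Hspd1 at 0.13.

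The same 5 genes were lower after nephrectomy in mice given vehicle, a comparison that shares no library with the Oxf mice. There, all 5 had an unadjusted p under 0.05 (4.46% of all tested genes had such a p, and 2.37% were lower). Hspa1b had a log2 fold change of -2.04 ± 0.57 (edgeR adjusted p = 0.739) and Hsph1 of -1.05 ± 0.32 (adjusted p = 0.952). The sham-vehicle mice were widely spread, with Hsph1 between 13.8 and 112 CPM and a median of 47.3, while CKD-vehicle mice lay between 20.7 and 29.5. Hspa1b was at 118 and 135 CPM in sham-vehicle mice 903 and 905. It was at 6.03 to 31.4 in the remaining sham-vehicle mice and at 6.104 to 12.99 in CKD-vehicle. For Hsph1 and Hspa1b, sham-vehicle values therefore covered the CKD-vehicle range. Mice 903 and 905 held the highest levels of all 5 genes, and the vehicle comparison was not tested without them. The difference between the 2 surgery effects was -0.21 ± 0.46 for Hsph1 and 0.86 ± 0.80 for Hspa1b, and none of the 5 had an unadjusted p under 0.05 in that test.

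**Figure D2:**
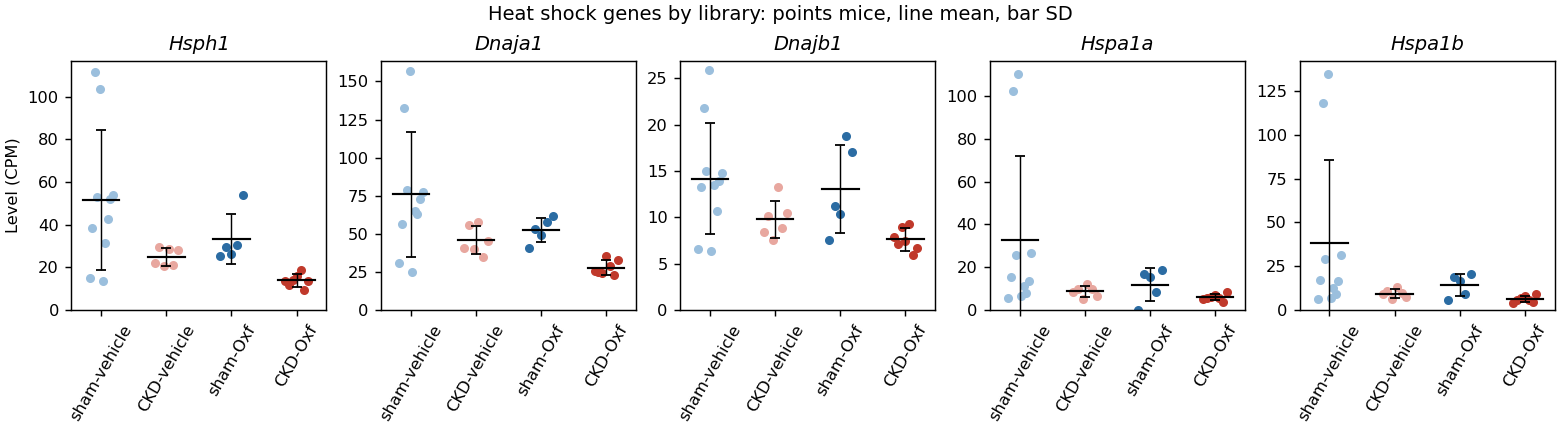
Points give the level of 5 heat shock genes in each of the 28 mice (CPM, linear axes that differ between panels), with the mean as a line and the SD as a bar for each of 4 groups. For Hsph1, CKD-Oxf mice lie at 9.49 to 18.6 CPM, below every sham-Oxf and CKD-vehicle mouse. They overlap the sham-vehicle mice, which lie the widest, at 13.8 to 112 CPM.

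Platelet and megakaryocyte genes led the higher side. Platelets inherit their RNA from megakaryocytes and carry the transcripts of adhesion receptors, granule chemokines and a dedicated tubulin. Of 30 such genes, a list written after Tubb1, Rgs18, Cd226 and Stx11 were seen among the leading genes, 28 were tested and 27 had a positive log2 fold change, with a median of 1.35. Selp, which encodes P-selectin, was the exception at -0.22 (0.48 without mouse 921). At an unadjusted p under 0.05, 20 were higher and 0 lower, where 3% of all genes tested were higher. Without mouse 921 all 29 tested were positive with a median of 1.88, and 24 had an unadjusted p under 0.05, against 2.52% of all genes. Without mouse 934, the count was 16 of 28 (2.13% of all genes) and the median 0.98. With both mice left out, a choice made after seeing the data, it was 22 of 28 (2.06% of all genes) with a median of 1.45. The list contains genes chosen for their difference, so these counts describe it only.

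Tubb1, the beta-1 tubulin of the platelet marginal band (ENSMUSG00000016255, chr2:174450695-174457882), was at 3.60, 1.26, 2.6, 2 and 1.40 CPM in sham-Oxf mice 921, 923, 925, 927 and 929. In CKD-Oxf mice 931, 932, 933, 934, 935, 936 and 940 it was at 6.38, 16.7, 3.66, 34.7, 9.34, 9.16 and 5.35 CPM. The groups did not overlap, as for 0.144% of all tested genes in that direction, though mice 933 and 921 were almost level. Its log2 fold change was 2.50 ± 0.67 (p = 0.000788, edgeR adjusted p = 0.195), and 2.75 ± 0.76 without mouse 921. Itgb3 and Itga2b, the 2 chains of the fibrinogen receptor, gave 1.34 ± 0.41 and 1.37 ± 0.51, or 1.65 and 1.88 without mouse 921. Itgb3 was at 17.4 CPM in mouse 921, at 6.42 to 10.3 in the other 4 sham-Oxf mice and at 13.8 to 47.8 in CKD-Oxf. Its groups overlapped only through mouse 921. Ppbp, a granule chemokine, was at 15.9 CPM in mouse 921, 2.99 to 6.08 in the other 4 and 10.4 to 55.6 in CKD-Oxf (log2 fold change 1.79, or 2.33 without mouse 921). Nfe2, the transcription factor of platelet release, showed 0, 21, 6, 6 and 9 counts in sham-Oxf against 18 to 141 in CKD-Oxf (log2 fold change 2.62, or 2.35 without mouse 921). By DESeq2 its adjusted p was 0.0112, or 0.0397 without mouse 921, and that of Rgs18 was 0.0348, or 0.0455. Tubb1, Treml1, P2rx1, Cd226 and Stx11 passed an adjusted 0.05 by DESeq2 only with mouse 921. Further members were Treml1, a platelet granule receptor (3.03, or 2.76), Gp9, a chain of the von Willebrand factor receptor (2.19, or 2.89), P2rx1, an ATP-gated channel (2.39, or 2.11), Plek, the pleckstrin of platelet secretion (1.53, or 1.63), and Pf4, platelet factor 4 (1.17, or 1.26). Mouse 921 held the highest sham-Oxf level of Tubb1, Itga2b, Itgb3 and Ppbp but listed no count for Nfe2, Treml1 and P2rx1.

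The level summed over the platelet list was 340 CPM in mouse 921 and 182 to 241 CPM in the other 4 sham-Oxf mice. In CKD-Oxf it ranged from 249 to 796 CPM, with mouse 934 highest and mouse 933 lowest. A few abundant members weigh heavily in this sum. Mrvi1, Thbs1 and F13a1 had 1738, 1393 and 1108 counts in mouse 923, against 56 for Tubb1. In mouse 933 they had 1615, 825 and 1834, against 127. Whether the counts of these 3 genes came from platelets was not tested. Without mouse 921 the sums of the 2 groups did not overlap, and 14 of the 29 genes separated the groups completely, against 0.318% of all genes tested. Mouse 934 also had the highest 7SL share, and mice 936 and 940, with 7SL shares of 1.95% and 2.52%, had platelet sums of 373 and 291 CPM. With the 7SL share as covariate 17 of 28 platelet genes had an unadjusted p under 0.05 on the higher side, with a median of 1.21, and 21 of 29 without mouse 921, but the share of all genes on that side was also larger in the first of these fits, at 5.91%, and 3.29% in the second. In vehicle mice the same comparison gave 0 of 28 genes at this level, against 2.09% higher and 2.37% lower among all genes tested, and a median of -0.04. The surgery effect was larger with Oxf than with vehicle for 15 of 28 genes at an unadjusted p under 0.05 (1.48% of all genes), and for none after adjustment. Without mouse 921, 22 of 29 had such a p for the difference, against 2.66% of all genes in either direction. The list was written from genes that led the comparison in Oxf mice, which is itself part of this difference. These counts, and their contrast with vehicle mice, therefore describe the list and test nothing. In bulk tissue, more platelets and more RNA per platelet cannot be told apart.

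**Figure D3:**
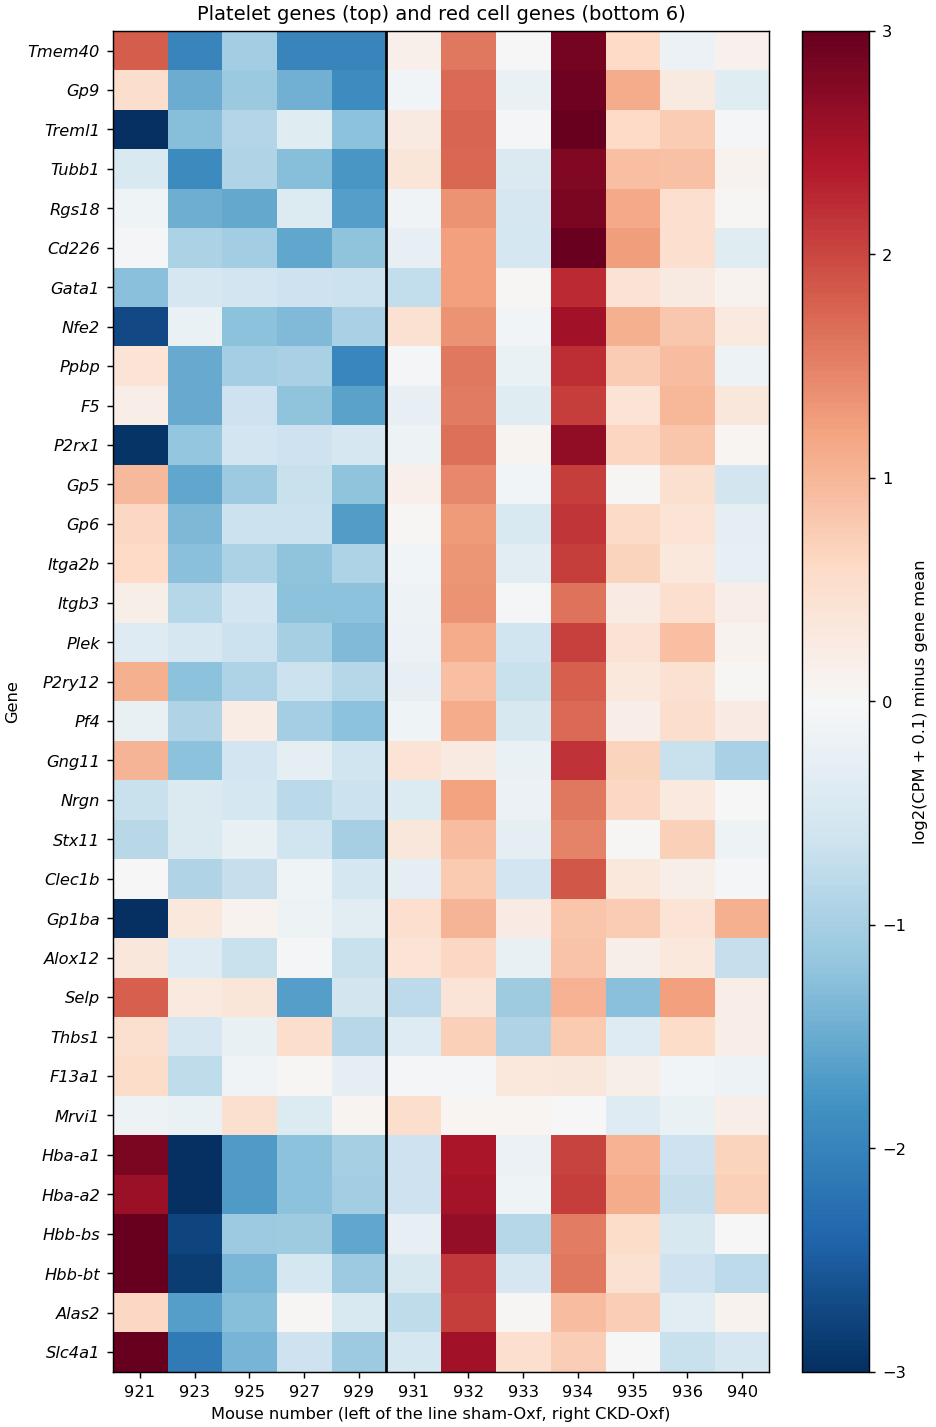
Colours give log2(CPM + 0.1) minus the mean of each gene over the 12 libraries, for 28 platelet genes and, at the bottom, 6 red cell genes, with sham-Oxf mice left of the line and CKD-Oxf mice right of it. Mice 923 to 929 are blue in most rows, mouse 934 is darkest red for platelet genes, and mouse 921 is dark red for globins.

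Red cell genes turned on mouse 921. Hba-a1, an alpha globin gene, was at 28 CPM in mouse 921, at 0.225 to 1.9 in the other 4 sham-Oxf mice and at 2.48 to 21.7 in CKD-Oxf. Its log2 fold change was 0.43 ± 0.78 with mouse 921 and 2.84 ± 0.74 without it. Hbb-bt, a beta globin gene, went from -1.21 to 2.29 in the same way. Globin copies are near-identical and uncertain as single genes. Over 6 red cell genes the median was 0.11 with 1 gene higher at an unadjusted p under 0.05, against 3% of all genes tested. Without mouse 921 it was 2.48 with 6 of 6, against 2.52%, and 1.26 with 3 of 6 when the 7SL share was also a covariate, against 3.29%. With mouse 921 kept, leaving out any 1 of mice 923, 925, 927, 929, 932 and 934 made the median negative, down to -0.44 without mouse 932. The summed level was 122 CPM in mouse 921, 6.03 to 22.1 CPM in the other 4 sham-Oxf mice and 17.5 to 136 CPM in CKD-Oxf. All of these mice were perfused, and the part of residual blood in the platelet and red cell values was not tested.

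Among immune genes, S100a9, a neutrophil and monocyte alarmin, had 0, 1, 2, 3 and 0 counts in sham-Oxf and 6, 27, 3, 101, 14, 12 and 18 in CKD-Oxf. In CPM the groups did not overlap (0 to 0.081 against 0.0864 to 2.64), but the level is close to 0 and mouse 934 is again highest. Of the 12 neutrophil genes listed, only 4 were abundant enough to test with all libraries. Nlrp3, the inflammasome sensor, was at 0 in mouse 921, at 0.27 to 1.10 CPM in the other 4 and at 0.917 to 1.66 in CKD-Oxf (log2 fold change 1.10, or 0.81 without mouse 921). The inflammasome, cytokine and chemokine list as a whole had a median of -0.11 with 7 of 15 genes positive. Cxcl12, a chemokine that retains stem cells and recruits lymphocytes, was lower, at 162 to 267 CPM in sham-Oxf against 83.6 to 176 in CKD-Oxf (log2 fold change -0.53, or -0.45, p = 0.0127). Of 13 interferon-stimulated genes 11 were positive, with a median of 0.24 against 0.05 over all genes tested. Without mouse 921 the median was 0.27 against -0.0034. At an unadjusted p under 0.05, 1 was higher, against 3% of all genes tested, and 2 without mouse 921, against 2.52%. Oasl2 had the smallest p of the list (log2 fold change 0.54, or 0.36, p = 0.0204). Ifi204, an interferon-inducible DNA sensor, led outside that list, with 8.92 to 11.8 CPM in sham-Oxf against 12.3 to 17.2 in CKD-Oxf, and no overlap (log2 fold change 0.49 ± 0.13, or 0.46, edgeR adjusted p = 0.195). Macrophage and leukocyte markers also had 11 of 13 positive, with a median of 0.13. Cd163, a scavenger receptor of resident macrophages, was at 0.39, or 0.30 without mouse 921.

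The other leading protein-coding genes on the higher side were Mkrn1, a ubiquitin ligase (0.79 ± 0.20, or 0.83), Lsm12, an RNA-binding protein (0.96 ± 0.24, or 0.79), the zinc finger genes Zscan12 (0.67, or 0.49) and Zfp1 (0.52, or 0.51), and Anxa3, an annexin (0.44 ± 0.12, or 0.43), together with the platelet-list members Tubb1, Rgs18 (2.19, or 2.47), Cd226 (2.16, or 2.46) and Stx11 (1.18, or 1.13). Mkrn1 and Lsm12 were also highest in mice 932 and 934, at 32.1 and 29.5 CPM for Mkrn1 and 24.0 and 41.1 CPM for Lsm12, the 2 mice with the highest platelet sums. On the lower side Lpcat1, which remodels phosphatidylcholine, was tightly grouped, at 12.7, 13.1, 11.9, 11.2 and 12.6 CPM in sham-Oxf against 7.93 to 10.5 in CKD-Oxf, with no overlap (log2 fold change -0.43 ± 0.11, or -0.41, edgeR adjusted p = 0.195, DESeq2 adjusted p = 0.0144). Spry4, a feedback inhibitor of receptor tyrosine kinase signalling, was at 13.6 to 23.2 CPM against 7.69 to 12.1, without overlap (log2 fold change -0.74, or -0.58, DESeq2 adjusted p = 0.0173). Thap2 (-0.63, or -0.45) and Gabpb1, a subunit of the GABP transcription factor (-0.32, or -0.28), also separated the groups. Slc23a2, a vitamin C transporter (-0.33, or -0.26), Slc35a2, the UDP-galactose transporter of the Golgi (-0.43, or -0.45), Dcp1b, an mRNA decapping factor (-0.67, or -0.65), and Naglu, a lysosomal enzyme of heparan sulfate breakdown (-0.62, or -0.40), were lower with overlap.

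Most genes of cardiac load and remodelling differed by less than the spread between mice. Nppa, atrial natriuretic peptide, was at 348, 248, 933, 30.4 and 428 CPM in sham-Oxf against 85.6 to 780 in CKD-Oxf, a log2 fold change of 0.42 ± 0.55 (p = 0.447), or 0.38 without mouse 921. The whole CKD-Oxf range lay inside that of sham-Oxf. Nppb, brain natriuretic peptide, was at 17.2 CPM in mouse 921, 6.27 to 7.43 in the other 4 and 5.40 to 18.5 in CKD-Oxf. Its log2 fold change was 0.60 ± 0.42 (p = 0.166), and 0.98 ± 0.45 without mouse 921 (p = 0.0391, edgeR adjusted p = 0.705). In vehicle mice Nppb was higher by 1.04 after nephrectomy (p = 0.00658), and the 2 surgery effects did not differ beyond their error (-0.44, p = 0.434, or p = 0.919 without mouse 921). All 7 tested natriuretic genes were positive, with a median of 0.25, or 0.20 without mouse 921. Corin, the protease that activates the peptides, gave 0.25 ± 0.15, or 0.20 without mouse 921. The fetal gene list had a median of 0.11, or 0.14 without mouse 921. Myh7, the slow myosin, was at 0.12 ± 0.15, Acta1, skeletal actin, at 0.79 ± 0.54 and Tead1, a transcription factor of the fetal program, at 0.19. Without mouse 921 they were at 0.14, 0.96 and 0.14. Acta1 was widest in CKD-Oxf, from 24.4 CPM in mouse 936 to 170 CPM in mouse 935, and its log2 fold change was 0.30 without mouse 935. That of Nppa was 1.00 without mouse 925 and 0.12 without mouse 927.

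Collagen genes were spread around 0. The 14 collagens had a median of -0.02, 6 positive and 8 negative, none with an unadjusted p under 0.05. Col1a1 was at -0.29 ± 0.31, Col3a1 at 0.13 ± 0.30 and Col5a2 at 0.25 ± 0.19, or -0.21, 0.11 and 0.18 without mouse 921. Of 19 tested fibrosis regulators 13 were negative with a median of -0.09, and Tgfb2, a transforming growth factor ligand, was at -0.48 ± 0.15 (p = 0.00356, edgeR adjusted p = 0.295), or -0.35 without mouse 921. Tagln, a smooth muscle actin-binding protein, was at -0.57, and at -0.26 without mouse 921, which held its highest level. Endothelial genes had a median of 0.06, with Emcn at -0.23 ± 0.14, or -0.12 without mouse 921.

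Muscle and energy genes had positive list medians that depended on the 7SL share and on single mice, and no gene passed. The 15 sarcomere genes had a median of 0.22 (14 positive), or 0.35 without mouse 921, with Myh6, the fast myosin, at 0.30 ± 0.19, or 0.35. The 17 respiratory chain genes were all positive with a median of 0.25, or 0.41 without mouse 921, and Ndufa4 had the smallest p (0.63 ± 0.44, or 0.86, p = 0.159). Of 22 fatty acid oxidation genes 20 were positive, with a median of 0.15, or 0.36 without mouse 921. Pdk4, the kinase that turns the heart from glucose to fat, was at 23.2 to 49.3 CPM in sham-Oxf against 30.2 to 168 in CKD-Oxf (log2 fold change 0.91 ± 0.32, or 0.88, p = 0.00835). Acot1, a thioesterase of fatty acyl-CoA, gave 0.95 ± 0.34 (p = 0.00943), or 0.85 without mouse 921. Cpt2 and Hadhb, enzymes of mitochondrial beta-oxidation, were at 0.07 ± 0.22 and 0.31 ± 0.32, and Hk1, a hexokinase, at 0.29. Without mouse 921 these were 0.028, 0.42 and 0.35. Trdn, a protein of the calcium release unit, gave 0.65 ± 0.34, and Pnpla2, the triglyceride lipase, 0.26, or 0.63 and 0.31 without mouse 921. With the 7SL share as covariate the list medians were -0.011 for the sarcomere, -0.16 for the respiratory chain, -0.11 for fatty acid oxidation and -0.072 for glycolysis, against 0.092 over all genes. Without mouse 921 they were 0.010, -0.18, -0.11 and -0.066, against -0.0020. Fatty acid oxidation was also at -0.0031 without mouse 923, and the respiratory chain at 0.051 without mouse 934. Pdk4 fell to 0.53 without mouse 940, and Ndufa4 to 0.23, Hadhb to 0.15 and Trdn to 0.32 without mouse 934. Ndufa4, Hadhb and Cpt2 turned negative with the 7SL share as covariate, and so did Trdn when mouse 921 was also left out. Mouse 934, with the highest 7SL share, held the highest level of Ndufa4 (116 CPM), Hadhb (241 CPM) and Trdn (245 CPM).

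**Figure D4:**
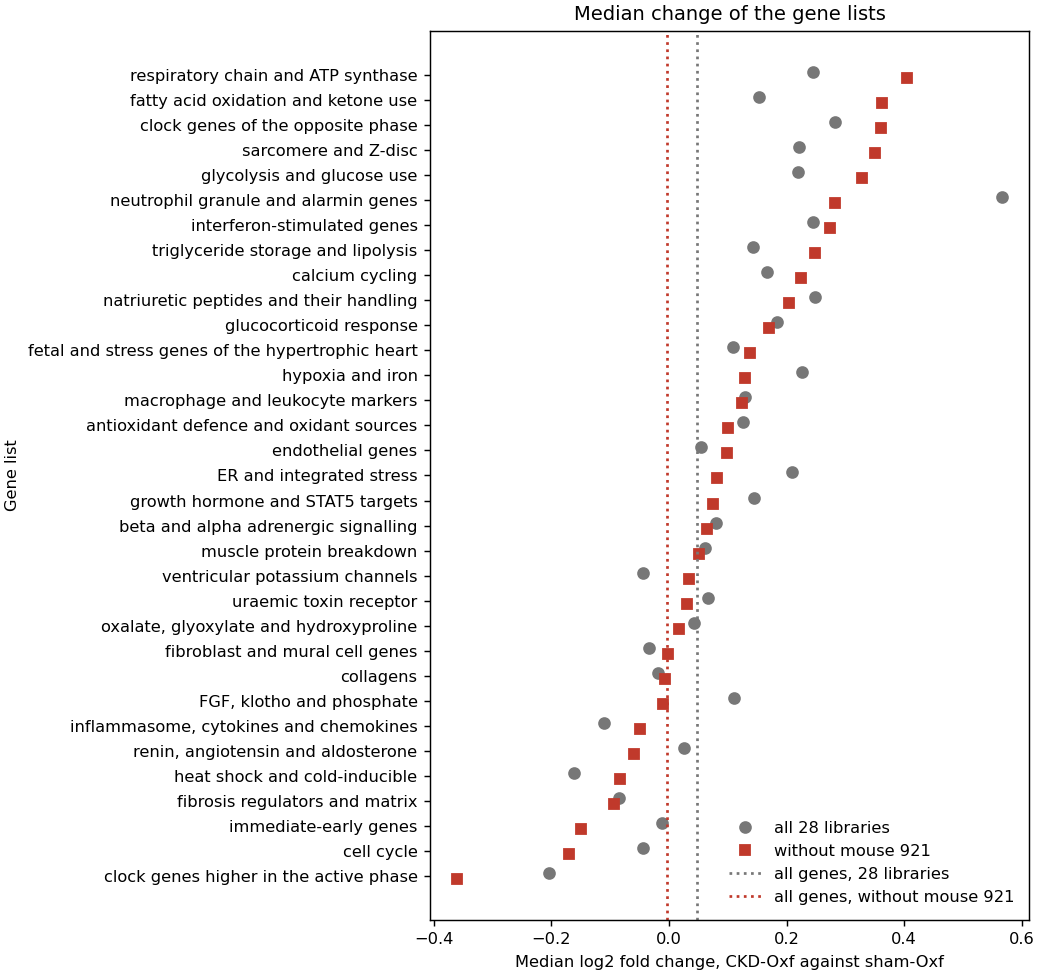
Points give the median log2 fold change of each of 33 gene lists, CKD-Oxf against sham-Oxf, with all 28 libraries (grey circles) and without mouse 921 (red squares), and dotted lines give the medians over all genes tested (0.05 and -0.0034). Respiratory chain genes are highest without mouse 921 at 0.41. The clock gene list of Dbp is lowest at -0.36, and the active phase in its label is only a name.

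The 2 clock gene lists of opposite phase had medians of opposite sign. A clock score, the mean log2 level of the Dbp list minus that of the Arntl list, was set to 0 at the sham-vehicle mean. It was 0.513 in mouse 921, 1.46 to 1.68 in the other 4 sham-Oxf mice and -0.0117 to 1.44 in CKD-Oxf. Without mouse 921 the scores of the 2 groups did not overlap. Arntl, which encodes BMAL1, was at 2.51, 5.02, 2.15, 1.59 and 1.92 CPM in sham-Oxf against 3.24 to 15.1 in CKD-Oxf, overlapping only through mouse 923. Its log2 fold change was 1.34 ± 0.44 (p = 0.00499, edgeR adjusted p = 0.331), and 1.32 without mouse 921. Slc41a3, a magnesium transporter on the same list, gave 0.40, or 0.49 without mouse 921. That list had 6 of 7 tested genes positive and a median of 0.28, or 5 of 7 and 0.36 without mouse 921. At an unadjusted p under 0.05, 2 were higher and 1 lower (-0.45), against 3% and 5.22% of all genes tested. Without mouse 921 it was 3 and 0, against 2.52% and 4.41%. Of 12 genes that peak with Dbp, 10 were negative with a median of -0.20, or 11 and -0.36 without mouse 921. In each fit 1 of the 12 was lower at an unadjusted p under 0.05. Bhlhe41 was at -0.36, or -0.40 without mouse 921. Dbp itself was at 63.0 to 129 CPM in sham-Oxf against 76.2 to 130 in CKD-Oxf (log2 fold change -0.10 ± 0.35, or -0.23). In vehicle mice Dbp was at -1.24 ± 0.33 after nephrectomy, and the 2 surgery effects differed by 1.14 (p = 0.0244, or 0.0544 without mouse 921), which did not pass adjustment. The vehicle groups sat at another level, with Arntl at 13.7 ± 8.30 CPM in sham-vehicle (SD, n = 10) and 2.64 ± 1.37 in sham-Oxf (n = 5). With the clock score as covariate, edgeR gave 714 genes higher and 1288 lower at an unadjusted p under 0.05, in place of 729 and 1268. Without mouse 921 it gave 445 and 757, in place of 625 and 1093. No label gives a time of collection, and its part in these values was not tested.

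Members of the stress, hormone and toxin lists were mostly close to 0. Egr3, an immediate-early transcription factor, was at 1.37 to 8.59 CPM in sham-Oxf against 0.933 to 4.02 in CKD-Oxf (log2 fold change -1.15 ± 0.43, or -1.18). The 16 immediate-early genes ran from -1.15 to 1.65 with a median of -0.01, or -0.15 without mouse 921. At an unadjusted p under 0.05, 1 was higher and 1 lower, against 3% and 5.22% of all genes tested. Without mouse 921 it was 0 and 4, against 2.52% and 4.41%. Fkbp5, a glucocorticoid target, gave 0.64 ± 0.31, and Adra1a, the alpha-1A adrenergic receptor, -0.62 ± 0.24, or 0.69 and -0.61 without mouse 921. Fkbp5 was highest in mouse 940, at 70.5 CPM, and gave 0.38 without that mouse. Stat5a, which relays growth hormone, gave 0.27, or 0.31 without mouse 921. Cish, a feedback inhibitor induced through STAT5, was at 18.4 to 29.7 CPM in sham-Oxf against 20.3 to 36.2 in CKD-Oxf, a log2 fold change of 0.14 ± 0.16, or 0.25 without mouse 921. In vehicle mice it rose after nephrectomy by 0.82 ± 0.14 (edgeR adjusted p = 0.0261), 1 of 2 genes that passed there (0.00824%), the other being the noncoding gene RP23-230H3.6. The difference between the 2 surgery effects on Cish was -0.67 ± 0.21 (p = 0.00359, or 0.0123 without mouse 921), which did not pass adjustment. Cyp1a1, a target of the receptor for uraemic indoles, had 0 to 8 counts in sham-Oxf against 2 to 23 in CKD-Oxf. Slc34a1, the sodium-phosphate transporter of the renal tubule, had 0 to 21 counts against 2 to 150. Fgf23, a phosphate hormone, had at most 4 counts in any sham-Oxf library and 10 in any CKD-Oxf library and was too low to test. In the remaining lists the genes with the smallest p were Kcnv2, a potassium channel subunit (-0.63, or -0.49), Cyba, an NADPH oxidase subunit (0.34, or 0.16), Ireb2, an iron regulator (0.23, or 0.13), Grhpr, an enzyme of glyoxylate reduction (0.38, or 0.26), Bnip3, a mitophagy receptor (0.49, or 0.51), Ddit3, the stress factor CHOP (0.45), and Ccnb2, a mitotic cyclin (-0.91). Ddit3 and Ccnb2 followed mouse 921, and were at 0.19 and -0.13 without it.

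With the main scaling, noncoding genes carried most of the excess on the lower side. Among 15574 protein-coding genes, 3.12% were higher and 3.09% lower at an unadjusted p under 0.05, a balance that rests on the scaling, since upper quartile scaling gave 307 higher and 655 lower. Among 3147 long noncoding genes 0.953% were higher and 10.5% lower, and among 1691 genes of type TEC, provisional transcripts of the annotation, 0.296% were higher and 14.4% lower. Without mouse 921 protein-coding genes were at 2.54% higher and 1.99% lower, and the lower shares of the other classes were 8.67% and 18.2%. Single mice moved some of these counts: without mouse 923, 77 long noncoding genes were higher in place of 30 and 25 TEC genes in place of 5, and without mouse 931, 160 TEC genes were lower in place of 243. On the 12 Oxf libraries alone 136 long noncoding genes were lower in place of 330, and 101 TEC genes. In both fits 106 long noncoding and 132 TEC genes were lower. Of those 132 TEC genes, 107 (81.1%) overlap a protein-coding gene on the same strand, compared with 65.5% of all TEC genes tested. Where they overlap, their reads cannot be told from unspliced or intronic reads of the coding gene. TEC genes took 0.330% to 0.655% of the counts in sham-Oxf against 0.156% to 0.585% in CKD-Oxf, and these ranges overlapped. With the 7SL share as covariate, 38 TEC genes were higher and 222 lower, and 20 and 164 without mouse 921.

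RP24-63G9.2, an antisense RNA (ENSMUSG00000084917, chr9:80118895-80121937, GRCm38) overlapping the SUMO protease gene Senp6, had the smallest p of all genes with all 28 libraries. It was at 12.3, 7.58, 8.56, 8.34 and 7.00 CPM in sham-Oxf against 3.11 to 6.11 in CKD-Oxf. The groups did not overlap. If reads were counted without strand, they cannot be told from those of Senp6. Its log2 fold change was -0.81 ± 0.16 (p = 2.35e-05, edgeR adjusted p = 0.195, DESeq2 adjusted p = 0.009), and -0.66 ± 0.15 without mouse 921 (DESeq2 adjusted p = 0.0397). In vehicle mice it was at -0.08 ± 0.14. Gm26722 had the smallest p without mouse 921, with 15 to 24 counts in the 4 remaining sham-Oxf mice and 1 to 17 in CKD-Oxf (log2 fold change -1.71 ± 0.36, edgeR adjusted p = 0.489). RP23-122P5.3, a TEC gene overlapping Mapkapk2 on the same strand, gave -0.95 ± 0.25, or -0.98 without mouse 921. RP24-488I7.2, overlapping Synpo2 in the same way, gave -0.77 ± 0.19, or -0.69 without mouse 921.

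The U1 small nuclear RNA copy Rnu1b6 was higher in 5 of 7 CKD-Oxf mice than in any sham-Oxf mouse. Little of the difference remained with the 7SL share as covariate. Of 616 small RNA genes 9.58% were higher and 8.12% lower, or 10.7% and 8.81% without mouse 921. Rnu1b6, a copy of U1, was at 9.91 to 28.9 CPM in sham-Oxf against 9.61 to 197 in CKD-Oxf (log2 fold change 2.30 ± 0.79, or 2.66, p = 0.0068), and Rnu1a1 gave 1.5, or 2.17 without mouse 921. U1 copies are near-identical, so single copies are uncertain. The 2 CKD-Oxf mice with the lowest 7SL shares, 936 and 940, also had the lowest Rnu1b6 levels of their group, at 9.61 and 19.4 CPM. With the 7SL share as covariate the log2 fold change was 0.46 for Rnu1b6 and 0.18 for Rnu1a1, or 0.14 and 0.079 without mouse 921. Over 6 small RNA genes listed after their values were seen, of which Rn7s1 and Rn7s2 themselves make up the covariate, the median was 1.62, or 2.11 without mouse 921, and 0.30 and 0.11 with the covariate. It was 1.07 without mouse 934, where 28 small RNA genes were higher in place of 59. With the covariate 14 small RNA genes were higher in place of 59, and without mouse 921 2 in place of 73.

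**Figure D5:**
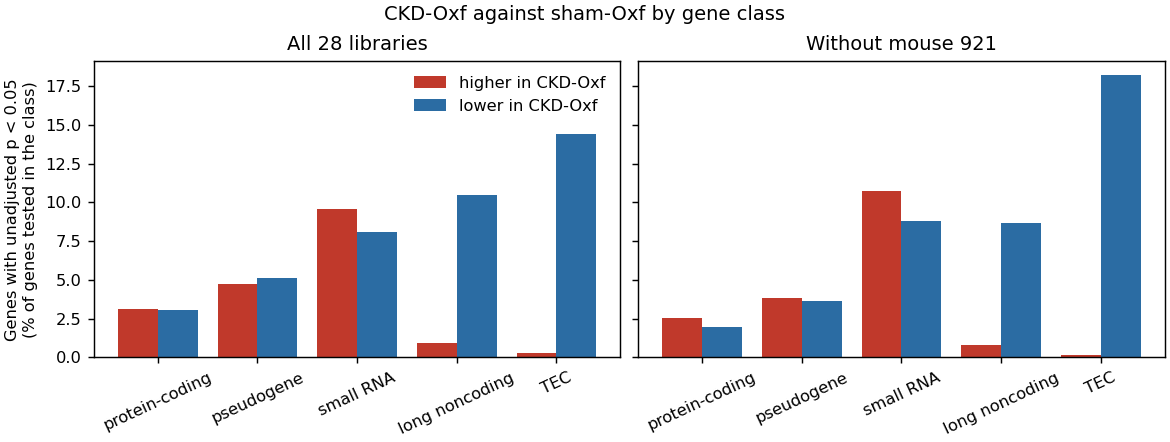
Bars give the percentage of tested genes in each annotation class that were higher (red) or lower (blue) in CKD-Oxf at an unadjusted p under 0.05, with all 28 libraries (left) and without mouse 921 (right). Protein-coding genes split evenly with all libraries under this scaling (3.12% and 3.09%), while TEC genes reach 14.4% and 18.2% on the lower side.

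Across all genes the surgery effect with Oxf was not shown to differ from that with vehicle. The interaction test gave 0 of 24273 genes past an adjusted 0.05 with edgeR and 862 (3.55%) at an unadjusted p under 0.05, 360 in the positive (1.48%) and 502 in the negative direction (2.07%). Without mouse 921 it gave 0 and 660 (2.66%), and DESeq2 gave 0 with that mouse and 7 without it.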

How the data were processed

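Total RNA from ventricular myocardium was sequenced on an Illumina NovaSeq 6000, per the labels' protocols. The authors deposited 1 table of raw read counts per gene for all libraries. Per the submitters' processing notes, reads were checked with FastQC 0.11.7 and MultiQC 1.9, aligned with STAR 2.6.1d and counted with featureCounts 1.6.3 of Subread on mm10. Annotation, strand setting and options are not given in the sources used here. The table holds 45513 genes, 1532 of them with no count, and 45465 were matched to GENCODE by ID. edgeR 4.0.16 in R 4.3.3 filtered genes (filterByExpr, minimum count 10), scaled with TMM and fitted 4 group means over 28 libraries with robust quasi-likelihood F tests. Adjusted p-values are Benjamini-Hochberg over all genes tested, with a threshold of 0.05. CPM uses TMM library sizes. DESeq2 1.42.0, limma 3.58.1, other scalings, filters and covariates, and each mouse left out, were alternatives. The scripts were tested on simulated data. Each library is 1 mouse, and p-values set a difference against the spread between mice. In the main fit that spread was estimated over all 28 libraries, including the vehicle mice. The members and gene lists were chosen with earlier results of these data known. Named genes were the leading protein-coding genes at an unadjusted p under 0.05 in both fits, list members by their p, a set named regardless of value and the smallest p of each fit. The platelet, red cell, inducible heat shock and small RNA lists, and genes named from them, were written after values were seen. A few single genes are not reported here, though list counts and sums include them.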

Additional observations from a re-analysis of the deposited data

Results flagged for a closer look

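Single mice stood far from the rest of their group in 25 of 214 tests of a group's highest or lowest value, where chance gives about 1 in 20, or 10.7. Levels were compared as log2(CPM + 0.1), and each value below divides the gap to the nearest mouse by the range of its group. Mouse 921 accounted for 14. It was lowest of sham-Oxf in genes with a count (0.796), in the clock score, the mean difference of the Dbp and Arntl gene groups (0.806), and in Ddit3 (0.90), Zscan12 (0.867), Hspa1a (0.832), Gm26722 (0.818) and P2rx1 (0.737). It was highest in the 7SL share (0.784), the small RNA share (0.823), Nppb (0.834), Itga2b (0.825), Thap2 (0.782), Naglu (0.721) and Acta1 (0.716). Also in sham-Oxf, mouse 929 was highest in Hsph1 (0.761) and mouse 923 lowest in Myh7 (0.783).

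In CKD-Oxf, mouse 935 was lowest in the atrial marker sum (0.742), in Nppa (0.786) and in Naglu (0.647). Mouse 931 was lowest in the clock score (0.626) and highest in Slc41a3 (0.746). Mouse 936 was highest in Bhlhe41 (0.685) and lowest in Cyp1a1 (0.598), mouse 934 highest in Trdn (0.641) and mouse 940 highest in Pnpla2 (0.599).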

How the results depend on the processing

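No paired analysis was possible because each mouse has its own number and the groups share none. The count of 0 genes past an adjusted 0.05 held for edgeR and limma under the scalings, filters, covariates and subsets tried, and for each mouse left out (0 to 0), but DESeq2 gave 100, and 14 without mouse 921. For the difference between the surgery effects DESeq2 gave 7 without mouse 921. Genes whose groups did not overlap numbered 66 with mouse 921 and 189 without it, where 4 mice remain. With the 7SL share as covariate, values turned sign for Cpt2 (-0.079), Dbp (0.15), Hadhb (-0.10) and Ndufa4 (-0.093), and without mouse 921 also for Bnip3 (-0.016), Col1a1 (0.16), Ireb2 (-0.065), Trdn (-0.16), Cpt2 (-0.20), Dbp (0.045), Hadhb (-0.18) and Ndufa4 (-0.19). With the clock score as covariate this held for Col3a1 (-0.017), Cpt2 (-0.013) and Dbp (0.30), and without mouse 921 for Col3a1 (-0.12), Col5a2 (-0.012), Cpt2 (-0.10) and Dbp (0.31). Cpt2 was also negative with limma (-0.11, and -0.11 without mouse 921), without mouse 923 (-0.049), without mouse 934 (-0.038) and without mice 921 and 934 (-0.066). Hbb-bt turned positive with limma (1.93) and without mouse 921 (2.29), there also with DESeq2 (2.32), limma (1.97), the 11 Oxf libraries alone (2.29), the 7SL share (0.78), the clock score (2.21) and mouse 934 left out too (2.06). Selp did so in the same order with 0.43, 0.48, 0.49, 0.45, 0.48, 0.71, 0.45 and 0.29. With each mouse left out in turn, values ran from -0.049 to 0.16 for Cpt2, from -1.73 to 2.29 for Hbb-bt and from -0.49 to 0.48 for Selp. The cause was not tested. Mouse 921 listed 0 for 7519 of the 22823 genes counted in every other library, and no level could be compared there.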
